A study of Rattus norvegicus with 7 samples.

Results

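The complement genes C1qa, C1qb, C1qc and C6 were examined in fetal rat lung, with the question of whether the 3 C1q chains kept their balance after intra-amniotic (IA) LPS and whether C6 moved with them. All 4 genes were found in the deposited table of 23918 genes by their Ensembl identifiers, ENSRNOG00000012807 for C1qa, ENSRNOG00000012749 for C1qb, ENSRNOG00000012804 for C1qc and ENSRNOG00000024115 for C6. Pregnant Sprague-Dawley rats received sterile saline (PBS, the controls) or 10 µg of LPS from E. coli O55:B5, a component of the bacterial outer membrane, into the amniotic cavity under ultrasound guidance on embryonic day 18. Whole fetal lungs were collected 24 h later for bulk RNA-sequencing of polyA RNA, with 3 control lungs and 4 IA LPS lungs. The labels do not say whether the lungs came from separate litters, so p-values measure the spread between these samples.

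C1q is the recognition molecule of the classical complement pathway, built from A, B and C chains that are encoded by C1qa, C1qb and C1qc and assembled together. Unlike most complement proteins, which come mainly from the liver, C1q is made chiefly by macrophages and related myeloid cells. C6 acts at the other end of the cascade as a soluble component of the membrane attack complex, the pore that forms on target membranes.

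Total estimated counts were 25031827, 26844367 and 27724439 in controls 1 to 3 and 28164960, 28336525, 27332721 and 27401107 in IA LPS replicates 1 to 4. Levels are given as CPM, the usual unit of counts relative to library size, after TMM scaling, an adjustment for differences in RNA composition. A count of 3, taken as the floor of detection, was worth 0.105 to 0.124 CPM, and all 4 genes were far above it in all 7 libraries. Counting error and floors cover the sampling of reads only. IA LPS replicate 4 has a column in the table but was not among the lungs the study compared, so the tests of the 4 genes and of their ratios are given with 6 lungs (IA LPS replicates 1 to 3) and then with all 7, and other values name the set they use. A pair of libraries stood apart in markers of other tissues. The summed level of 3 hepatocyte markers was 529 CPM in control 3, against 69.8 and 12.0 CPM in controls 1 and 2, and that of 3 thymus markers was 31.2 CPM in IA LPS replicate 2, against 0.924 to 1.52 CPM in the other 6 libraries. The thymus sum there was mostly Rag1, at 27.8 CPM, while Dntt was at 0.618 CPM, within the 0.334 to 0.659 CPM of the others. The lung itself was marked by Sftpc, the surfactant protein C gene of alveolar type 2 cells, at a mean of 578 CPM in controls.

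Transcripts of the 3 C1q chains and of C6 were all higher after IA LPS. A gene was called when the quasi-likelihood test of edgeR gave a change of 1.5-fold or more, a p below 0.05 and an adjusted p below 0.1. All 4 were called higher with 6 lungs, where 2.17% of 15627 tested genes were called higher, and all 4 with 7 lungs, where 1.40% of 15750 were. The C1q chains rose by 1.60-fold to 1.78-fold with 6 lungs, and C6 rose by 2.76-fold. In neither set did the control and IA LPS lungs overlap for any of the 4 genes, which was also so, with IA LPS higher, for 14.8% of all tested genes with 6 lungs and 10.6% with 7. The 4 genes were chosen with earlier results in view, so these calls and this separation are a description. In RNA from whole lungs, more cells that express a gene and more RNA per cell cannot be told apart.

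C1qa, the A chain, measured 15.6, 17.7 and 19.4 CPM in controls 1 to 3 and 31.5, 30.5, 23.0 and 40.0 CPM in IA LPS replicates 1 to 4. Every IA LPS lung was above every control, with replicate 3 nearest to the controls and replicate 4 highest. The counts behind these levels ran from 379 in control 1 to 1077 in IA LPS replicate 4, with a counting error of 5.14% and 3.05%. The mean was 17.5 ± 1.88 CPM in controls (SD, n = 3) and 28.3 ± 4.67 CPM in IA LPS replicates 1 to 3 (SD, n = 3). The log2 fold change was 0.69 ± 0.14 (SE) with an edgeR adjusted p of 0.0339 with 6 lungs, and 0.83 ± 0.18 with an adjusted p of 0.0862 with 7. The 6-lung call was lost without control 1, where the log2 fold change was 0.61 and the adjusted p 0.126, and without IA LPS replicate 2, the library with thymus markers, where they were 0.63 and 0.111.

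C1qb, the B chain, measured 39.2, 35.5 and 44.3 CPM in controls 1 to 3 and 69.7, 67.5, 53.3 and 90.8 CPM in IA LPS replicates 1 to 4. The order among the IA LPS lungs was that of C1qa, with replicate 4 highest, replicates 1 and 2 close together and replicate 3 lowest, still above all controls. Means were 39.7 ± 4.42 CPM in controls (SD, n = 3) and 63.5 ± 8.92 CPM in IA LPS replicates 1 to 3 (SD, n = 3). The log2 fold change was 0.68 ± 0.12 (SE, edgeR adjusted p = 0.0206) with 6 lungs and 0.83 ± 0.18 (adjusted p = 0.0776) with 7. The 6-lung call held when each of the 6 lungs was left out in turn, with adjusted p values of 0.0199 to 0.0995.

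C1qc, the C chain, measured 43.3, 50.9 and 56.9 CPM in controls 1 to 3 and 93.3, 106, 70.1 and 110 CPM in IA LPS replicates 1 to 4. Replicates 2 and 4 were highest and replicate 3 was again the IA LPS lung nearest to the controls. Means were 50.4 ± 6.81 CPM in controls (SD, n = 3) and 89.7 ± 18.1 CPM in IA LPS replicates 1 to 3 (SD, n = 3), so the spread among treated lungs was wider than among controls. The log2 fold change was 0.83 ± 0.15 (SE, edgeR adjusted p = 0.026) with 6 lungs and 0.91 ± 0.17 (adjusted p = 0.0576) with 7. Without control 1 the 6-lung log2 fold change was 0.73 and the adjusted p 0.112, past the limit for a call.

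C6 measured 2.64, 2.51 and 3.66 CPM in controls 1 to 3 and 9.01, 7.16, 8.24 and 8.13 CPM in IA LPS replicates 1 to 4. The lowest IA LPS lung, replicate 2, was well above the highest control, control 3, and replicate 4 lay in the middle of its group. Counts were 64, 68 and 104 in controls and 258, 197, 231 and 219 in IA LPS lungs, so the counting error of a single library was 6.23% to 12.5%, larger than for the C1q chains. Means were 2.94 ± 0.63 CPM in controls (SD, n = 3) and 8.14 ± 0.93 CPM in IA LPS replicates 1 to 3 (SD, n = 3). The log2 fold change was 1.47 ± 0.19 (SE) in both sets, with an edgeR adjusted p of 0.00997 with 6 lungs and 0.0389 with 7. C6 ranked 59 by p among the 15627 genes tested with 6 lungs and 12 among the 15750 tested with 7. C6 is also on the study's list of changed lung genes, so these ranks are a description. With 6 lungs the call held when any 1 lung was left out, with adjusted p values of 0.012 to 0.0514.

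With 7 lungs the calls were less stable. Leaving out any 1 of the controls, or IA LPS replicate 2, ended the calls of all 4 genes, with adjusted p values for C6 of 0.181, 0.165 and 0.103 without controls 1, 2 and 3 and 0.116 without IA LPS replicate 2. Leaving out IA LPS replicate 1 ended the calls of the 3 C1q chains alone, with adjusted p values of 0.158, 0.145 and 0.106 for C1qa, C1qb and C1qc. In the 4 fits that ended all calls, the number of genes called higher over the whole table was 1 or 2, against 220 with all 7 lungs. Directions held in each of these fits.

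**Figure D1:**
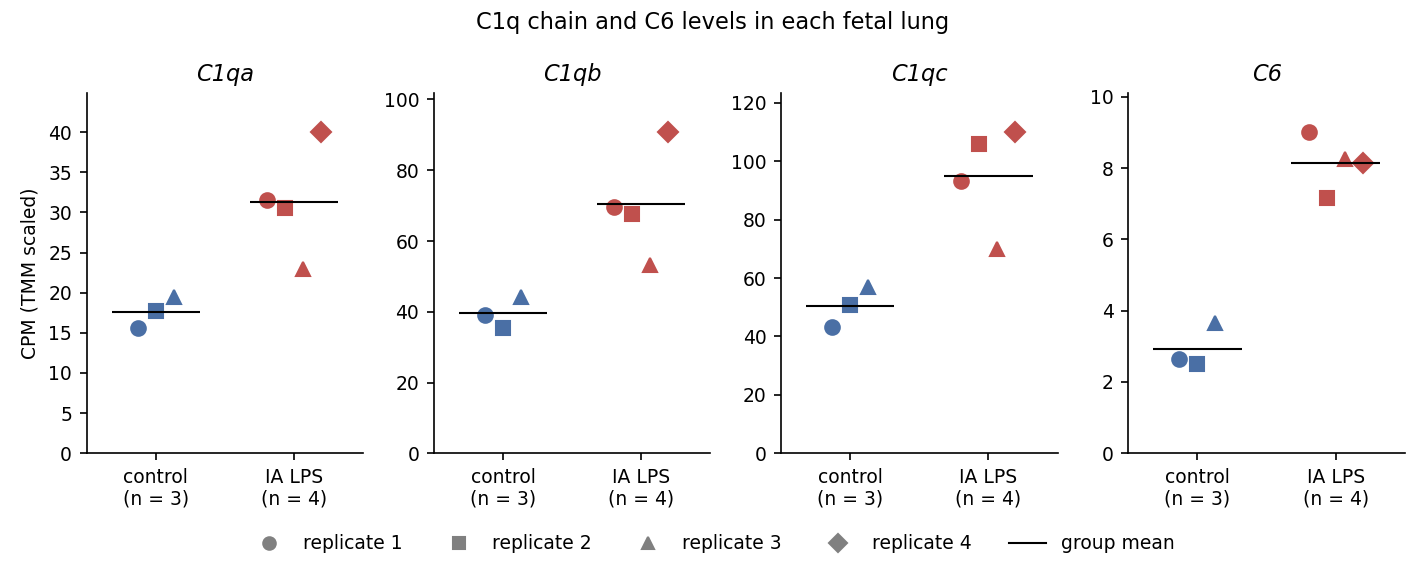
Level of C1qa, C1qb, C1qc and C6 in each fetal lung, in CPM after TMM scaling on axes that start at 0, for 3 control and 4 IA LPS lungs with the group mean as a line. For C1qa the IA LPS lungs lie between 23.0 and 40.0 CPM and the controls between 15.6 and 19.4 CPM, and for C6 between 7.16 and 9.01 against 2.51 and 3.66 CPM.

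The balance of the C1q chains was read from ratios of counts within a library, which need no scaling between libraries. Such ratios also carry transcript length and so were compared between groups only, not read as amounts of one chain over another. Of the counts summed over the 3 genes, C1qa took 15.9%, 17.0% and 16.1% in controls 1 to 3 and 16.2%, 15.0%, 15.7% and 16.6% in IA LPS replicates 1 to 4. C1qb took 40.0%, 34.1% and 36.7% in controls and 35.8%, 33.1%, 36.4% and 37.6% in IA LPS lungs. C1qc took 44.1%, 48.9% and 47.2% in controls and 48.0%, 51.9%, 47.9% and 45.8% in IA LPS lungs. The groups overlapped for all 3 shares, and control 1, with the largest C1qb share, and IA LPS replicate 2, with the largest C1qc share, stood at the ends.

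The log2 ratio of C1qb to C1qa was 1.33, 1.01 and 1.19 in controls 1 to 3 and 1.15, 1.14, 1.21 and 1.18 in IA LPS replicates 1 to 4. The IA LPS lungs lay inside the range of the controls. The group means differed by -0.0087 with 6 lungs (exact two-sided permutation p = 1) and by -0.00495 with 7 (exact permutation p = 0.971), where each p is double that of the smaller tail. The spread over the 6 lungs, an SD of 0.106, compared with 0.0721 from counting error alone.

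The log2 ratio of C1qc to C1qa was 1.47, 1.53 and 1.55 in controls 1 to 3 and 1.57, 1.79, 1.61 and 1.47 in IA LPS replicates 1 to 4. Replicates 1 to 3 were above the controls, and replicate 4 was level with the lowest control, so the groups overlapped with 7 lungs. The difference was 0.14 with 6 lungs (exact permutation p = 0.1, the smallest that 3 against 3 lungs can give with this doubling, and 0.15 adjusted over the 6 pairs of genes, both equal to those of the C6 ratios below) and 0.09 with 7 (exact permutation p = 0.343). For C1qc over C1qb the log2 ratio was 0.14, 0.52 and 0.36 in controls and 0.42, 0.65, 0.40 and 0.28 in IA LPS lungs. These groups overlapped in both sets, with a difference of 0.15 with 6 lungs (exact permutation p = 0.4) and 0.10 with 7 (exact permutation p = 0.457). With 6 lungs, leaving out each lung gave differences of 0.07 (without IA LPS replicate 2) to 0.18 for C1qc over C1qa, and of 0.05 (without control 1) to 0.24 (without control 2) for C1qc over C1qb, where leaving out IA LPS replicate 2 gave 0.07. A p above the threshold does not show that the chains moved alike. The ratios of the chains differed between groups by at most 1.11-fold in either set. The difference for C1qc over C1qa with 6 lungs was larger than the SD within groups, 0.042 in controls and 0.12 in IA LPS lungs. That for C1qc over C1qb, 0.146, was within the control SD of 0.19 and just above the IA LPS SD of 0.139. For C1qc over C1qa with 6 lungs, counting error alone gave an SD of 0.0695, above the 0.042 seen among controls.

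Relative to each chain, C6 was higher in every IA LPS lung than in every control. The log2 ratio of C6 to C1qa was -2.57, -2.81 and -2.41 in controls 1 to 3 and -1.81, -2.09, -1.48 and -2.30 in IA LPS replicates 1 to 4. All IA LPS lungs were above all controls, but replicate 4 was close to control 3. The difference was 0.80 with 6 lungs, a 1.74-fold higher ratio, and 0.68 with 7, a 1.60-fold higher ratio. Over C1qb the ratio was -3.90, -3.82 and -3.60 in controls and -2.95, -3.24, -2.69 and -3.48 in IA LPS lungs, a difference of 0.81 with 6 lungs and 0.68 with 7. Over C1qc it was -4.04, -4.34 and -3.96 in controls and -3.37, -3.88, -3.09 and -3.76 in IA LPS lungs, a difference of 0.67 with 6 lungs and 0.59 with 7. The groups did not overlap for any of the 3 ratios, and IA LPS replicate 3, with the lowest C1q levels of its group, had the highest C6 ratio each time.

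Each of these 3 ratios had an exact two-sided permutation p of 0.1 with 6 lungs and 0.0571 with 7, the smallest that 3 against 3 and 3 against 4 lungs can give when the p of the smaller tail is doubled, as was done here. Adjusted over the 6 pairs of genes by Benjamini-Hochberg, the values were 0.15 and 0.114 (exact permutation). Within the IA LPS group the order of the lungs differed between the genes. From highest to lowest it was replicates 4, 1, 2 and 3 for C1qa and C1qb, 4, 2, 1 and 3 for C1qc, and 1, 3, 4 and 2 for C6. With 4 lungs, no correlation within the group was computed. As a share of the mean, the SD over the 4 IA LPS lungs was 22.3%, 22.0% and 19.0% for C1qa, C1qb and C1qc and 9.31% for C6. Over IA LPS replicates 1 to 3 it was 16.5%, 14.1% and 20.2% for the chains and 11.4% for C6. In controls it was 10.7%, 11.1% and 13.5% for the chains and 21.4% for C6, so C6 varied less than each chain among IA LPS lungs and more among controls.

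**Figure D2:**
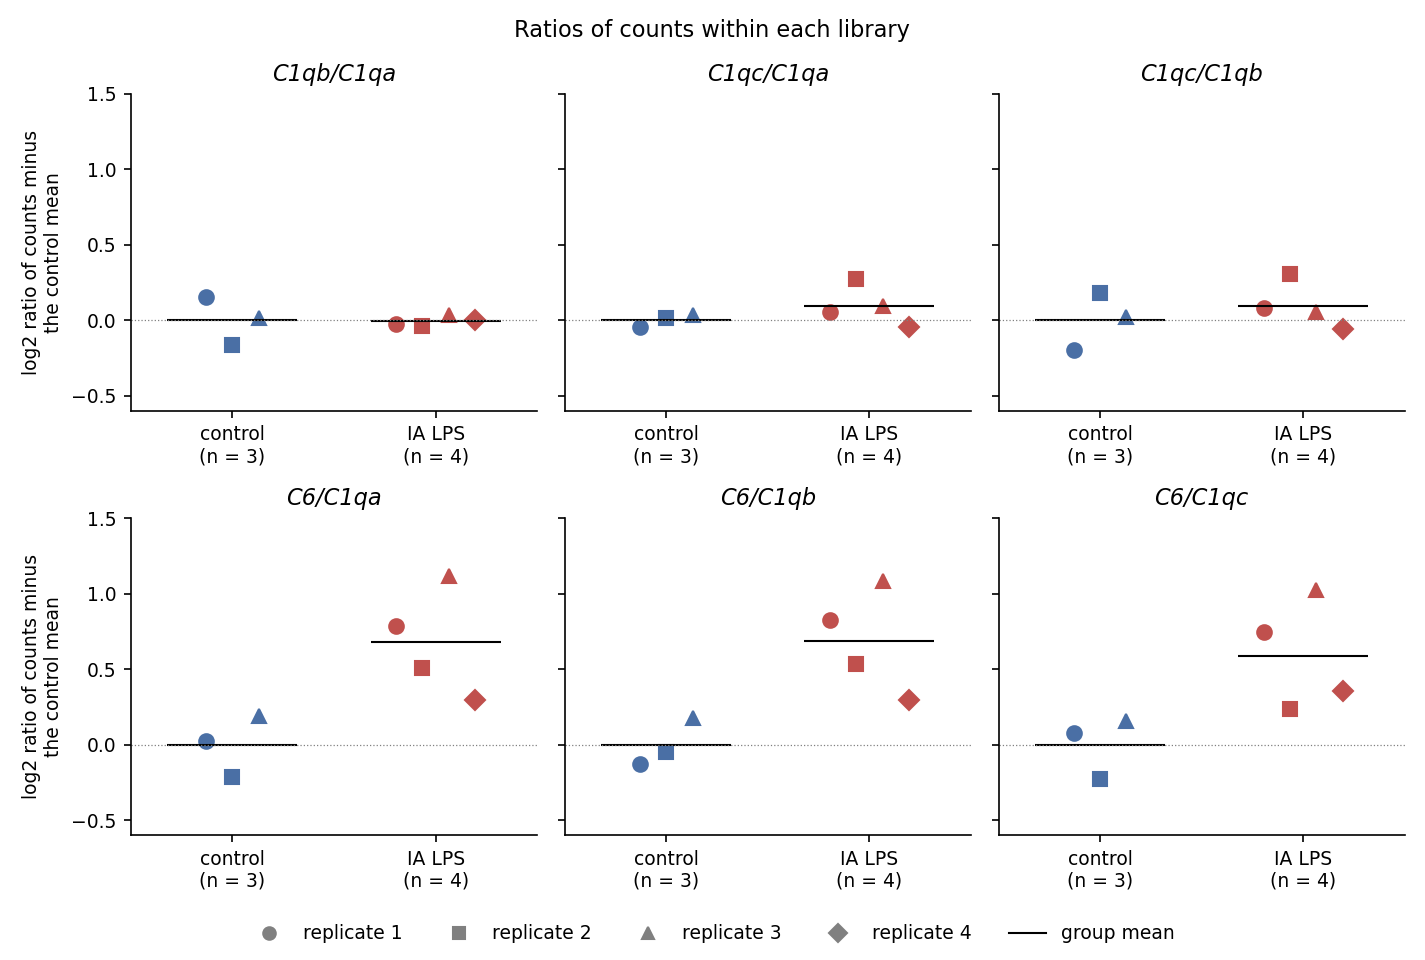
Log2 ratio of counts for each pair of the 4 genes in each fetal lung, minus the mean of the 3 controls, with group means as lines and symbols for the replicate number. With 7 lungs, the ratios of C6 to C1qa, C1qb and C1qc are above all controls in the 4 IA LPS lungs, with mean differences of 0.68, 0.68 and 0.59, while the groups overlap for the ratios between C1q chains. IA LPS replicate 2 lies as far above the control mean for C1qc over C1qb as the lowest IA LPS lungs do for C6.

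Likeness of pattern was measured as the root mean square difference of mean-centred log2 CPM over the 7 libraries, among 14313 other tested genes that averaged 1 CPM or more. C1qa and C1qb differed by 0.0893, and 2 other genes lay nearer to C1qa than C1qb did. C1qa and C1qc differed by 0.102, with 2 other genes nearer to C1qa, and C1qb and C1qc by 0.15, with 29 nearer to C1qb. C6 differed from C1qa by 0.413, from C1qb by 0.403 and from C1qc by 0.381. In the same order, 3985, 3808 and 1620 other genes were nearer to these chains than C6 was. The measure was not scaled for the size of a change, and C6 changed more. Its log2 fold change with 7 lungs was 1.47, against 0.825 to 0.913 for the C1q chains. A gene level over all 7 libraries would lie 0.467 from the mean of the chains. These counts therefore cannot tell a different pattern from a larger change.

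The gene nearest to the mean of the 3 chains was Oasl2, an interferon-induced gene of the oligoadenylate synthetase family, at 0.053, with a log2 fold change of 0.75 (edgeR adjusted p = 0.0464) with 6 lungs and 0.85 (adjusted p = 0.086) with 7. Its 6-lung call was lost without control 1, control 2, IA LPS replicate 1 or IA LPS replicate 2, with adjusted p values of 0.149, 0.108, 0.139 and 0.138. The 7-lung call of Oasl2 was lost in 5 of 7 fits with a lung removed (adjusted p up to 0.345), with limma-voom (0.104) and with no filter on low counts (0.101). The other 4 of the nearest 5 had no symbol in the sources used here, the nearest of them being ENSRNOG00000001153 at 0.0622 and ENSRNOG00000010412 at 0.0903. The 5 nearest to C6 were Dnah6, an axonemal dynein heavy chain, at 0.152, Fmo5, a flavin-containing monooxygenase, at 0.165, Ccdc153 at 0.171, Siglec8 at 0.177 and Angptl4, an inhibitor of lipoprotein lipase, at 0.20. Dnah6 had a log2 fold change of 1.34 (edgeR adjusted p = 0.00943) with 6 lungs and 1.32 (adjusted p = 0.0389) with 7, where 3 of 7 fits with a lung removed kept the call. No gene was among the nearest 5 of both patterns, which follows from the distance between C6 and the chains and is no separate result.

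In the rat assembly GRCr8, the RefSeq annotation places C1qb, C1qc and C1qa next to each other on chromosome 5 with 0 other genes between them, and C6 on chromosome 2. Since all 4 genes rose, the 250 bases before the RefSeq gene start were compared for the 3 of the 4 genes with a promoter entry, C1qa, C1qb and C6. The C1qa window is chr5:154419934-154420183 and the C1qb window chr5:154407828-154408077, both on the minus strand, and the C6 window is chr2:55573383-55573632 on the plus strand. Capitals mark 2 motifs searched on both strands, GGAAGT (reverse ACTTCC), the core bound by ETS factors such as PU.1, and TGCTGA (reverse TCAGCA), the half-site bound by MAF factors, and the motifs do not overlap in these windows. They are families known for macrophage gene expression.
C1qa: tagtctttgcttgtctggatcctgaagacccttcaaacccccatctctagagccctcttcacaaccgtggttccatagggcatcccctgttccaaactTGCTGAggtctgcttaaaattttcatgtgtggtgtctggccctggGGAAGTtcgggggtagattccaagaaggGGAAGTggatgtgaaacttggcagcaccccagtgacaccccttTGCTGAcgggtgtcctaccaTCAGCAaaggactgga
C1qb: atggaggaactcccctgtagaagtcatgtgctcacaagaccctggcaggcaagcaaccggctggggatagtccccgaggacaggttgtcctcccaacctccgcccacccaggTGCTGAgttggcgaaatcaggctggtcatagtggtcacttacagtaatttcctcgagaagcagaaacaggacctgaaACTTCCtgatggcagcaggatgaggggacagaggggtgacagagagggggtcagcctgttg
C6: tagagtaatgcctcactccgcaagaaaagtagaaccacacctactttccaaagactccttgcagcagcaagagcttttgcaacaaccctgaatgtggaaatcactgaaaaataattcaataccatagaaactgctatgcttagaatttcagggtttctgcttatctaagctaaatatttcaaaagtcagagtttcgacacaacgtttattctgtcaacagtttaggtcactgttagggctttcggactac
The C1qa window held 2 matches to GGAAGT, 107 and 79 bases before the start, and 3 to TGCTGA, 152, 36 and 16 bases before it. The C1qb window held 1 match to each, 61 and 138 bases before the start, and the C6 window held 0 of either. Over 33469 promoter windows of the same length, 19.2% held GGAAGT and 15.1% held TGCTGA on either strand. A match describes letters in the window, not binding.

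Other complement genes gave the setting of these 4. Of 51 complement genes listed by role, 15 had an identifier paired with their symbol, all 15 were tested, and the other 36 were not analysed here. Symbols were paired mostly for genes on the study's lists of changed placental genes, 11 of the 15 from the list headed up, so the named genes are a selected set. Besides the 4, 1 of 11 was called higher and 0 lower with 6 lungs, where 2.17% of all tested genes were called higher and 1.13% lower. With 7 lungs, 0 of the 11 were called in either direction by edgeR, where 1.40% and 0.508% of all genes were. Of the 11, 4 had an unadjusted p below 0.05 with 7 lungs, where 15.8% of all tested genes had one (22.2% with 6 lungs), DESeq2 called 1 and limma-voom 0. With 6 lungs, where edgeR called 0 lower, DESeq2 and limma-voom also called 0 lower. The median log2 fold change of the 11 was 0.09 with 6 lungs and -0.17 with 7, against 0.00293 and 0.00965 for all tested genes. These medians are the values of C3 with 6 lungs and of Cr2 with 7, and both turned direction as single lungs were left out. With the 4 included, the medians of the 15 were 0.47 and 0.40.

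Along the cascade, the rise of the C1q chains was not shared by C1s, a serine protease of the C1 complex. C1s had 5.27, 5.47 and 5.98 CPM in controls and 4.92, 5.09, 4.25 and 4.34 CPM in IA LPS lungs, lower in each of the 4 than in every control, as were 13.2% of all tested genes with 6 lungs and 9.18% with 7, with a log2 fold change of -0.23 ± 0.15 (SE, edgeR adjusted p = 0.404) with 6 lungs and -0.26 ± 0.15 (adjusted p = 0.432) with 7. In the lectin pathway, Fcnb, a ficolin of myeloid cells, had 23.1, 23.4 and 32.2 CPM in controls and 46.3, 36.7, 37.9 and 29.4 CPM in IA LPS lungs. It was the 1 further gene called higher with 6 lungs, with a log2 fold change of 0.62 ± 0.14 (SE, edgeR adjusted p = 0.0506). With IA LPS replicate 4, which lay within the controls, it was 0.52 ± 0.18 (adjusted p = 0.23) and not called. With library weights in limma-voom, chosen after seeing the data, it was called with 7 lungs (0.64, adjusted p = 0.0293). With 6 lungs the Fcnb call also ended without any 1 of the lungs but control 3, with log2 fold changes of 0.50 to 0.79 over the 6 fits.

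Cfd, the protease factor D of the alternative pathway, had a mean of 0.62 CPM in controls, against 1.25 CPM over IA LPS replicates 1 to 3, with a log2 fold change of 0.99 ± 0.32 (SE, edgeR adjusted p = 0.117) with 6 lungs and 1.17 ± 0.31 (adjusted p = 0.138) with 7, and was not called in either. It was called higher with 6 lungs when the filter asked for 1 CPM in 3 libraries (0.99, adjusted p = 0.0946), and with 7 lungs by DESeq2 (1.17, adjusted p = 0.069) and by limma-voom with library weights, a setting chosen after seeing the data (0.97, adjusted p = 0.0817). C3, at which the pathways meet, had 8.65, 5.75 and 22.6 CPM in controls and 11.9, 16.7, 10.8 and 8.50 CPM in IA LPS lungs. Control 3, the library with hepatocyte markers, was highest for C3, and the log2 fold change was 0.09 ± 0.44 with 6 lungs (edgeR adjusted p = 0.928) and -0.04 ± 0.44 with 7 (adjusted p = 0.971). Without control 3, C3 was called higher with 6 lungs, at 0.87 (adjusted p = 0.0969), and was not called with 7, at 0.74 (adjusted p = 0.389). Among terminal components, only C8a and C9 had an identifier besides C6, and they are named here after their values were seen. C9 had 1.24, 1.89 and 1.51 CPM in controls and 1.54, 3.72, 3.00 and 5.36 CPM in IA LPS lungs, with overlap through replicate 1 and a log2 fold change of 0.83 ± 0.35 (SE, edgeR adjusted p = 0.209) with 6 lungs and 1.13 ± 0.40 (adjusted p = 0.238) with 7. C8a counts were 26, 1 and 73 in controls and 0, 16, 2 and 3 in IA LPS lungs, at or under the floor of 3 in 4 of the 7 libraries. C8a was highest in control 3, control 1 and IA LPS replicate 2, also the libraries with the highest sums of hepatocyte markers. Its 6-lung log2 fold change of -2.49 (adjusted p = 0.288) moved between -4.95 and -1.32 as single lungs were left out. Neither was called in either set, though C9 was called higher with 6 lungs when IA LPS replicate 1 was left out (1.11, adjusted p = 0.098).

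Cd59, a membrane inhibitor of the attack complex, was the most abundant inhibitor with an identifier. It had 28.9, 30.8 and 33.0 CPM in controls and 44.9, 40.2, 43.7 and 34.2 CPM in IA LPS lungs, with no overlap. This was also so, with IA LPS higher, for 14.8% of all tested genes with 6 lungs and 10.6% with 7. The log2 fold change of Cd59, 0.47 ± 0.08 (SE, edgeR adjusted p = 0.0179) with 6 lungs, was under the fold change minimum for a call, and with 7 lungs it was 0.40 ± 0.12 (adjusted p = 0.164). Cr2, the complement receptor of B cells and the 1 receptor with an identifier, was at 0.206, 0.998 and 0.773 CPM in controls and 0.943, 0.691, 0.571 and 0.149 CPM in IA LPS lungs, and the groups overlapped.

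**Figure D3:**
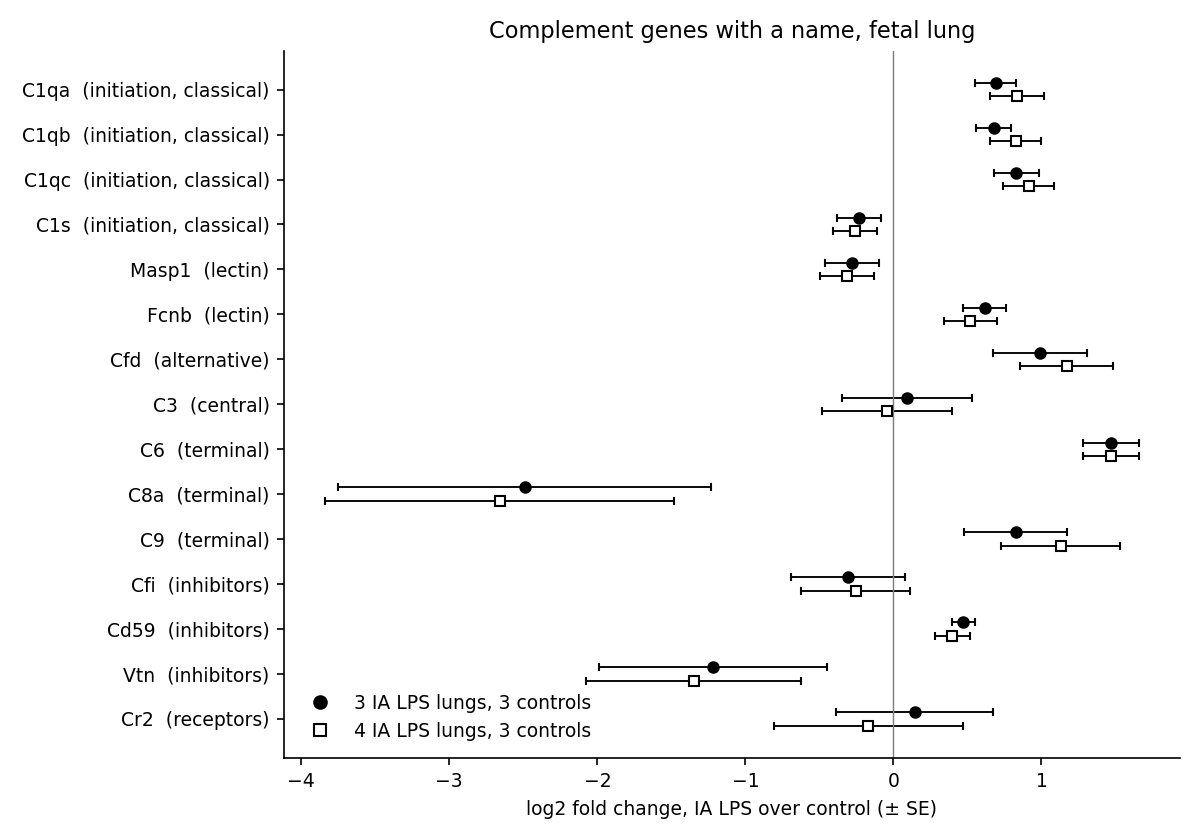
Log2 fold change of IA LPS over control for the 15 complement genes with an identifier paired with their symbol, with SE bars, by role, for 6 lungs (filled circles) and 7 lungs (open squares). C6 is highest at 1.47, the C1q chains lie between 0.68 and 0.91, and C8a, at -2.49 with 6 lungs, has the widest bar.

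Markers of the cells that make C1q were measured beside it. Of 20 macrophage markers listed, 7 had an identifier, 6 of them from the study's placental list headed up and that of Cx3cr1 from its lung list. They are a selected set, so their directions and calls are a description. Of the 7, 6 were tested, all 6 with positive log2 fold changes in both sets and a median of 0.36 with 6 lungs. Their calls were 2 of 6 higher with 6 lungs (Lyz2 and Cx3cr1), beside 2.17% of all tested genes, and 0 of 6 with 7, where DESeq2 and limma-voom also called 0 and 0 had an unadjusted p below 0.05. With library weights in limma-voom, chosen after seeing the data, both were called with 7 lungs, Lyz2 at 0.64 (adjusted p = 0.0382) and Cx3cr1 at 0.70 (adjusted p = 0.0759). The 6-lung calls depended on single lungs. When each of the 6 was left out in turn, Lyz2 kept its call in 1 fit (adjusted p values of 0.0194 to 0.186) and Cx3cr1 in 2 (0.0581 to 0.172). The summed level of the 7 was 189, 204 and 263 CPM in controls 1 to 3 and 353, 309, 289 and 208 CPM in IA LPS replicates 1 to 4. Replicates 1 to 3 were above the controls, and replicate 4, the lung with the highest C1q, was within them. Most of this sum was Lyz2, lysozyme, which lung epithelium also makes, at a mean of 168 CPM in controls. Other markers had other orders. In IA LPS replicates 1 to 4, Aif1 had 8.28, 9.38, 6.46 and 10.7 CPM, Tyrobp 21.4, 22.7, 18.8 and 23.5 CPM and Ms4a7 4, 6, 3 and 10 counts, each highest in replicate 4 and lowest in replicate 3, the order of C1qc. Cx3cr1 had 6.33, 7.49, 7.46 and 2.7 CPM in these lungs, with replicate 4 below every control (3.67, 5.22 and 4.02 CPM). Adgre1 had 4.5, 3.96, 2.5 and 3.27 CPM, highest in replicate 1 and lowest in replicate 3. Ms4a7 was at 0 counts in controls 1 and 3 and was not tested.

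The summed level of the 3 C1q chains was 98.2, 104 and 121 CPM in controls and 195, 204, 146 and 241 CPM in IA LPS lungs. C1q over the summed 7 macrophage markers was 0.519, 0.511 and 0.459 in controls and 0.551, 0.66, 0.507 and 1.16 in IA LPS lungs. Replicate 4 was highest, and replicate 3 lay within the controls, so the groups overlapped. Without Lyz2, a division made after the values were seen, the other 6 macrophage markers summed to 52.0, 47.0 and 52.9 CPM in controls and 60.9, 64.8, 54.8 and 59.9 CPM in IA LPS lungs. C1q over this sum was 1.89, 2.21 and 2.28 in controls and 3.19, 3.14, 2.67 and 4.03 in IA LPS lungs, higher in all 4 than in any control. Cd68, a lysosomal macrophage protein, measured 17.7, 17.4 and 17.3 CPM in controls and 20.2, 21.1, 19.5 and 19.3 CPM in IA LPS lungs, a log2 fold change of 0.21 ± 0.09 (SE, edgeR adjusted p = 0.195) with 6 lungs and 0.20 ± 0.09 (adjusted p = 0.352) with 7. With 6 lungs the fold changes of the tested markers were 1.65 for Cx3cr1, 1.53 for Lyz2, 1.41 for Adgre1, 1.16 for Cd68, 1.16 for Aif1 and 1.08 for Tyrobp, beside 1.60 to 1.78 for the C1q chains, and the differences between them were not tested. The part of macrophage number in the C1q result was not tested.

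Other lists were read for both results. Their identifiers came mostly from the study's placental list headed up, so their genes are a selected set too. Hepatocyte markers (3 of 12 with an identifier, Alb most abundant) summed to 69.8, 12.0 and 529 CPM in controls and 3.88, 88.8, 4.57 and 17.1 CPM in IA LPS lungs, with 0 of 3 called by edgeR in either set, 2 with an unadjusted p below 0.05, 1 called by DESeq2 and 0 by limma-voom. The liver also expresses C6. Control 3, with the highest sum, had 3.66 CPM of C6 against 2.64 and 2.51 CPM in controls 1 and 2, while IA LPS replicates 1 and 3, with the lowest sums, had 9.01 and 8.24 CPM. Neutrophil markers (8 of 12, Csf3r most abundant) summed to 12.1, 13.3 and 24.2 CPM in controls and 32.7, 29.0, 23.5 and 24.6 CPM in IA LPS lungs, with 2 of 7 tested genes called higher by edgeR with 6 lungs (S100a9 and Mmp8) and 1 of 7 with 7 (Mmp8), beside 2.17% and 1.40% of all tested genes. DESeq2 called 3 in both sets and limma-voom 3 and 2, and 5 and 4 had an unadjusted p below 0.05. With 6 lungs, S100a9 and Mmp8 were each still called in 1 of 6 fits with a lung removed, and with 7 lungs Mmp8 in 1 of 7. The 7-lung call of Mmp8 was also lost with library totals alone (adjusted p = 0.107) and with no filter on low counts (0.105), and library weights, chosen after seeing the data, called S100a9 with 7 (2.19, adjusted p = 0.0188). Log2 fold changes were positive for 6 of the 7 in both sets, while Mpo was at -0.17 with 6 lungs and -0.35 with 7. Retnlg was at 0 in all 3 controls. Lung epithelium markers (4 of 10, Sftpc most abundant) summed to 986, 1270 and 1210 CPM in controls and 1490, 1710, 1560 and 2050 CPM in IA LPS lungs, with 2 of 4 called higher in both sets (Sftpd and Cldn18), beside 2.17% and 1.40% of all tested genes. DESeq2 called 2 with 6 lungs and 3 with 7, limma-voom 2 in both, and 3 had an unadjusted p below 0.05 in both. Not called by edgeR were Sftpc, at 0.553 with 6 lungs and 0.705 with 7, and Nkx2-1, at 0.077 and 0.0827. With a lung removed, Cldn18 was still called in 1 of 6 and 1 of 7 fits, and Sftpd in 3 of 7 fits from the larger set. The 7-lung call of Cldn18 was also lost with library totals alone (adjusted p = 0.105) and with no filter on low counts (adjusted p = 0.101). Erythroid markers (9 of 11, Hba1 most abundant) and mesothelium markers (2 of 5, Msln most abundant) had means of the summed level of 16100 ± 1820 and 18.2 ± 4.97 CPM in controls (SD, n = 3) and of 23400 ± 8370 and 28.6 ± 9.33 CPM in the 4 IA LPS lungs (SD, n = 4), with 0 called by edgeR in either list and set. By lung, the mesothelium sum was 17.7, 13.5 and 23.4 CPM in controls and 29.8, 25.2, 18.5 and 40.7 CPM in IA LPS lungs, with the groups overlapping and the lungs of each group in the order of C1qb. The erythroid sum was 17000, 14000 and 17300 CPM in controls and 13300, 29000, 19800 and 31400 CPM in IA LPS lungs. By unadjusted p below 0.05 these lists had 0 and 1 genes, and DESeq2 called 0 and 1 and limma-voom 0 and 0. Of 2 thymus markers tested, edgeR, DESeq2 and limma-voom called 0, and with 6 lungs 1 had an unadjusted p below 0.05. The monocyte, lung mesenchyme and endothelium lists had no gene with an identifier and were not analysed here. The part of these cell types in the C1q and C6 results was not tested.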

How the data were processed

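Bulk RNA-sequencing of 3 control and 4 IA LPS fetal lungs was analysed, with groups and replicate numbers from the labels. The labels give the LPS dose incompletely, and the dose of the design text was used. Values deposited by the authors are estimated counts of each gene from kallisto and tximport, not normalized, and versions were not given in the sources used here. They were rounded for testing. Genes were filtered with filterByExpr, TMM scaled and tested with the quasi-likelihood test of edgeR 4.0.16 (R 4.3.3), with Benjamini-Hochberg adjustment over all tested genes. SE values came from the F statistic. Log2 CPM used a prior count of 2. Alternatives used DESeq2 1.42.0 and limma 3.58.1. Ratios were tested by exact permutation over lungs, with the p of the smaller tail doubled.

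The members and lists were chosen with earlier results of these data known, and C6 is also on the study's list of changed lung genes. The study's supplementary lists paired 2070 identifiers with symbols, 2050 of them in the table, and were used for names only. Named were the 4 genes, complement genes called in either set, the most abundant of each role, and the 5 genes nearest in pattern to the C1q chains and to C6. No pair of libraries was identical. Promoter windows and gene order came from RefSeq (GRCr8).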

Additional observations from a re-analysis of the deposited data

Results flagged for a closer look

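Of 18 quantities compared over the 4 IA LPS lungs, 2 held a lung far from the others, and chance gives about 1 such group in 20. The summed thymus markers were 31.2 CPM in IA LPS replicate 2, against 1.14 to 1.40 CPM in the other 3, with a gap of 0.991 of the range of the group. The summed hepatocyte markers were 88.8 CPM in IA LPS replicate 2, against 3.88 to 17.1 CPM in the other 3, with a gap of 0.844 of the range. The levels and ratios of C1qa, C1qb, C1qc and C6 were among the 16 quantities without such a lung. Without IA LPS replicate 2, the 6-lung log2 fold change was 0.63 for C1qa and 0.69 for C1qc. The part of these tissues in the results was not tested.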

How the results depend on the processing

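With 6 lungs, C1qa, C1qb, C1qc and C6 kept their direction and call under all 9 settings other than leaving out a lung, with log2 fold changes of 0.68 to 0.83, 0.67 to 0.83, 0.82 to 0.91 and 1.46 to 1.48. Leaving out each lung gave 0.60 to 0.82 for C1qa, with the call kept in 4 of 6 fits, and 0.69 to 0.98 for C1qc, kept in 5 of 6, while C1qb and C6 kept theirs in 6 of 6. With 7 lungs, the C1qa call was lost with limma-voom (0.80, adjusted p = 0.104), and those of C1qa (0.83), C1qb (0.83) and C1qc (0.91) at an adjusted p below 0.05 with no fold change minimum. Leaving out each of the 7 gave 0.69 to 0.95, 0.68 to 0.94, 0.82 to 1.03 and 1.37 to 1.66 for the 4 genes, and each lung left out leaves fewer samples. The cause of the lost calls was otherwise not tested.

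Over all genes, calls of 339 higher and 176 lower with 6 lungs became 220 and 80 with all 7. Lower calls numbered 318 at an adjusted p below 0.05 with no fold change minimum. Leaving out each of the 6 gave 150 to 384 higher and 67 to 177 lower. With 7 lungs, there were 424 higher and 208 lower with DESeq2 and 89 and 39 at an adjusted p below 0.05 with no fold change minimum. Leaving out each of the 7 gave 1 to 339 higher and 0 to 176 lower. Limma-voom with library weights, chosen after seeing the data, gave 463 and 252.

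Same-numbered lungs did not deviate together (correlations of 0.172, -0.0955 and -0.205 across genes), so the numbers were not taken to pair them. With the replicate block, the 4 calls held with 6 lungs, at 0.68, 0.67, 0.82 and 1.48. IA LPS replicate 4 has no control of its number, so with 7 lungs the block takes it out of the contrast and gives no separate check of those calls. Lower calls were then 152. With 6 lungs, the block ended the edgeR calls of Lyz2, Mmp8 and Oasl2, with adjusted p values of 0.109, 0.119 and 0.103 and log2 fold changes of 0.63, 1.90 and 0.74.

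The small difference in C1qb over C1qa changed sign when lungs were left out, from -0.094 to 0.068. The directions of C3 and Cr2, not called with the full sets, also turned. With 7 lungs C3 was at 0.15 with limma-voom, 0.30 with the replicate block and 0.38 with library weights, and Cr2 at 0.26 with the block and 0.36 with library weights. Leaving out each lung gave -0.25 to 0.87 for C3 and -0.27 to 0.56 for Cr2 with 6 lungs, and -0.38 to 0.74 and -0.58 to 0.25 with 7. The highest 6-lung value of C3, 0.87 without control 3, passed the call limits (adjusted p = 0.0969). The cause was not tested. Symbols from a reference table could not be tried, since that used here pairs none with Ensembl identifiers. Among C1qa, C1qb, C1qc and C6, depth limits C6 most, at 64 to 104 counts in controls.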
